A study of Homo sapiens with 4 samples.

Results

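The regions described here are the FOXC1 peak regions of J82 cells that lie closest together in the genome. J82 is a cell line from a human bladder cancer, grown in culture. FOXC1 was mapped by chromatin immunoprecipitation with sequencing (ChIP-seq), in which DNA fragments bound by a protein are pulled down with an antibody, here anti-FOXC1 (D8A6), and sequenced. The ChIP was done in 2 biological replicates, each with its own input of the same cells made without antibody (2 inputs), and the labels name no drug, sort or genotype for any of them. Peaks of both replicates that overlapped by at least 1 bp were merged, and merged regions on chromosomes 1 to 22 and X that held a peak of each replicate are called shared regions. Shared regions with a gap of at most 12.5 kb between their edges were joined, and those in groups of 3 or more are the members. The members were thus chosen by measured values, namely where peaks were called, so their number, spacing and strength are given as a description with no test. They numbered 1078 of 13228 shared regions (8.15%) and formed 320 dense clusters. Of the other shared regions, 2498 stood in pairs and 9652 were isolated. Findings hold for 1 cell line, and no library from cells without FOXC1 was analysed here. Peak lists carry no expression values, so the identity of the cells could not be checked against marker genes.

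FOXC1 belongs to the forkhead transcription factors, which bind DNA through a winged-helix domain and recognise short sequences related to GTAAACA. In development it acts in the eye, skeleton, vessels and kidney. Binding sites of a transcription factor that lie a few kilobases apart often belong to one stretch of open chromatin, with a promoter and several enhancers, or enhancers alone. AP-1, a dimer of JUN and FOS family proteins, recognises TGACTCA or its reverse complement TGAGTCA and is found at many enhancers of epithelial cancer cells.

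The sequences of 11 members show what stood under strong and weak summits of the same and of different clusters. Each runs from 50 bp before to 50 bp after the summit of the region and was read from the + strand of GRCh37 (the assembly of hg19). Capitals mark the AP-1 sequence and the forkhead consensus, which was searched on either strand. The consensus took in the strict form GTAAACA, the close variants GTAAATA on the one hand and ATAAACA on the other, and the form that combines them, written ATAAATA. Members 1 and 6 of the largest cluster, on chromosome 14, were its strongest. Its members 9 and 10 were weak and lay side by side. The remaining sequences are the strongest member of their cluster.
Chromosome 14, member 1, chr14:62020629-62020729: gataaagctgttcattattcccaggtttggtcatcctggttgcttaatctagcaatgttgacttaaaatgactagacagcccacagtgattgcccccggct
Chromosome 14, member 6, chr14:62040590-62040690: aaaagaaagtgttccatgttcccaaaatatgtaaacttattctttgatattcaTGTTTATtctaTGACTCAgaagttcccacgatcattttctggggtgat
Chromosome 14, member 9, chr14:62060188-62060288: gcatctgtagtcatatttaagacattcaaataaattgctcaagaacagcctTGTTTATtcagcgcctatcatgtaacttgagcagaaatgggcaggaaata
Chromosome 14, member 10, chr14:62061330-62061430: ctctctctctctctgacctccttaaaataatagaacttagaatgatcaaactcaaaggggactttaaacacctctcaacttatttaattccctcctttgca
Near SLC38A2, chr12:46886447-46886547: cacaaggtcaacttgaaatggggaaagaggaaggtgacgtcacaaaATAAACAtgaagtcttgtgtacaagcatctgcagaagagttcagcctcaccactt
In CDK6, chr7:92381661-92381761: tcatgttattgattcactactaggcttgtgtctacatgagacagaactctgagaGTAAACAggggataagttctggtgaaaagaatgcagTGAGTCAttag
Near GPRC5A, chr12:13025179-13025279: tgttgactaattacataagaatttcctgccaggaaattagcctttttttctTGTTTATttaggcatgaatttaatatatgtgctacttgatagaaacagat
In ARHGAP28, chr18:6741469-6741569: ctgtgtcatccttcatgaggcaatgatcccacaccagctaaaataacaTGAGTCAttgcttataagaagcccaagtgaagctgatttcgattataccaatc
In BDP1, chr5:70778126-70778226: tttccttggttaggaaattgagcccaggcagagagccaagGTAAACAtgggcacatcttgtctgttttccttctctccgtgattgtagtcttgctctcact
In TAB2, chr6:149556388-149556488: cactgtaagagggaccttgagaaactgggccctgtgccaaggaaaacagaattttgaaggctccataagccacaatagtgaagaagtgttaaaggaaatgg
In DNM3, chr1:172328305-172328405: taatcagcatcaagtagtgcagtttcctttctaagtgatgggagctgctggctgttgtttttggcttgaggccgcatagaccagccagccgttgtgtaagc

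Most dense clusters were small. Of the 320, 239 held 3 members, 58 held 4, and 23 held 5 or more, up to 10. Their spans ran from 2.465 to 41.8 kb with a median of 12.9 kb, and together covered 4.56 Mb, or 0.150% of chromosomes 1 to 22 and X. Member regions filled 15.4% of that length. The median distance between neighbouring summits, taken over the clusters' own medians, was 5613 bp. At the edge of the rule, the widest gaps that were still joined measured 12492, 12479 and 12446 bp. The closest groups of 3 that a single gap kept out had gaps of 12530, 12563 and 12608 bp. Fold enrichment in the first 3 groups ran from 2.81 to 41.6 in replicate 1 and from 2.47 to 52.3 in replicate 2. In the 3 groups just outside it ran from 1.69 to 7.77 and from 4.31 to 11.02.

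Members were about as strong as shared regions that stood alone. Fold enrichment is the pileup of ChIP fragments at the summit over the local background, each with 1 added. Over members its median stood at 3.78 in replicate 1 and at 6.83 in replicate 2. Over isolated regions the medians were 3.79 and 6.68, and over pairs 3.76 and 6.87. Among members it ranged from 1.73 to 57.4 in replicate 1 and from 2.02 to 71.0 in replicate 2. Replicate 2 gave the higher value in 992 of 1078 members (92.0%). This was not particular to members, as the median log2 ratio of replicate 2 to replicate 1 was 0.764 in members and 0.747 in isolated regions. The order of members was similar in the replicates, with a Spearman correlation of 0.776 across the 1078 members and of 0.748 across the isolated regions, a description because both values share the regions and the peak caller. In members, the best peaks of the replicates had summits that were typically close, with a median offset of 29 bp.

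The reads behind these values were few. The median member had 26 reads over its summit in replicate 1 and 49 in replicate 2, against 24 and 44 in isolated regions. A −log10 q of at least 5, where q is the p-value of the peak caller corrected for multiple testing, was reached by 54.7% of members in replicate 1 (95% Wilson interval 51.7 to 57.7) and by 86.9% in replicate 2 (84.8 to 88.8). For isolated regions the shares were 51.5% (50.5 to 52.5) and 85.6% (84.9 to 86.3). Some members had a far lower −log10 q. A member in LAMA4 had 0.0707 in replicate 1 and 3.27 in replicate 2, and the member in the exon of FOXC1 had 1.97 and 1.09. Being a member is thus no proof of binding at each region. The local background, worked out from the fold enrichment and the p-value and set against the genome-wide background of the same library, was 1.35 (replicate 1) and 1.37 (replicate 2) at the median member. At the median isolated region it was 1.28 and 1.302. A background of at least 1.5 times the genome-wide one was found at 41.5% and 44.7% of members, against 31.2% and 34.3% of isolated regions. Copy number and input depth both enter this background, and their part in the clustering was not tested.

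**Figure D1:**
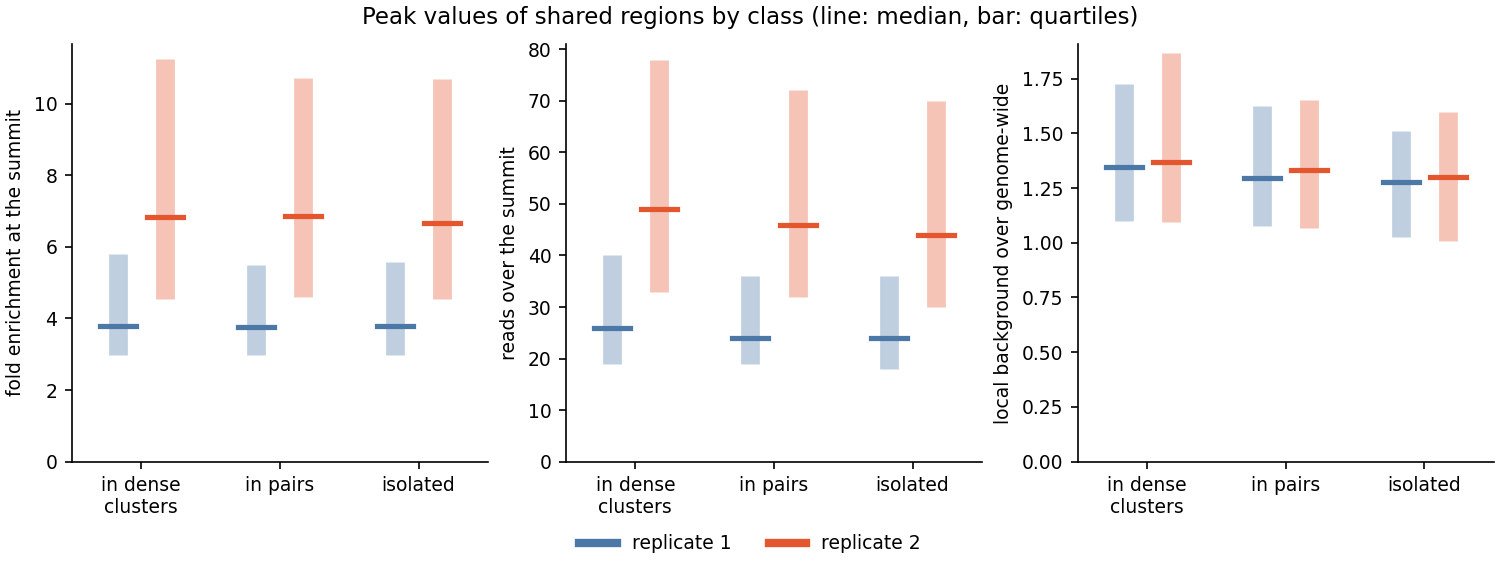
Fold enrichment, reads over the summit and local background over the genome-wide background for the 1078 members, 2498 regions in pairs and 9652 isolated regions, in each replicate. Lines are medians and bars run from the lower to the upper quartile; median fold enrichment lay between 3.76 and 3.79 in replicate 1 in all 3 classes, while the local background was highest in members.

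Strong and weak members stood side by side in the same cluster. When the variance of log2 fold enrichment over members was split into a part between clusters and a part within them, the part between clusters came to 0% in both replicates. That estimate has no interval and cannot fall below 0%, so it cannot show that strength was unrelated to the cluster. For the local background on the log2 scale, the part between clusters was 54.5% of the variance in replicate 1 and 44.2% in replicate 2. The GC content of the summit window stood between these, at 17.6%. The strongest member was 2.78 times the weakest in the median cluster, by mean fold enrichment of the replicates, and at least 2 times in 224 of 320 clusters (70.0%). The median strongest member reached 6.78 (replicate 1) and 13.6 (replicate 2), and the median weakest one 2.96 and 4.16. The strongest member held a median of 48.2% of the summed fold enrichment of its cluster (range 23.9 to 86.7%), and more than 50% in 134 clusters.

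The same member was strongest in both replicates in 251 of 320 clusters (78.4%, 95% Wilson interval 73.6 to 82.6). In clusters of 3 this was so in 186 of 239 (77.8%), and in larger ones in 65 of 81 (80.2%). In 76 of the 239 clusters of 3 (31.8%) the strongest member was the middle one.

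**Figure D2:**
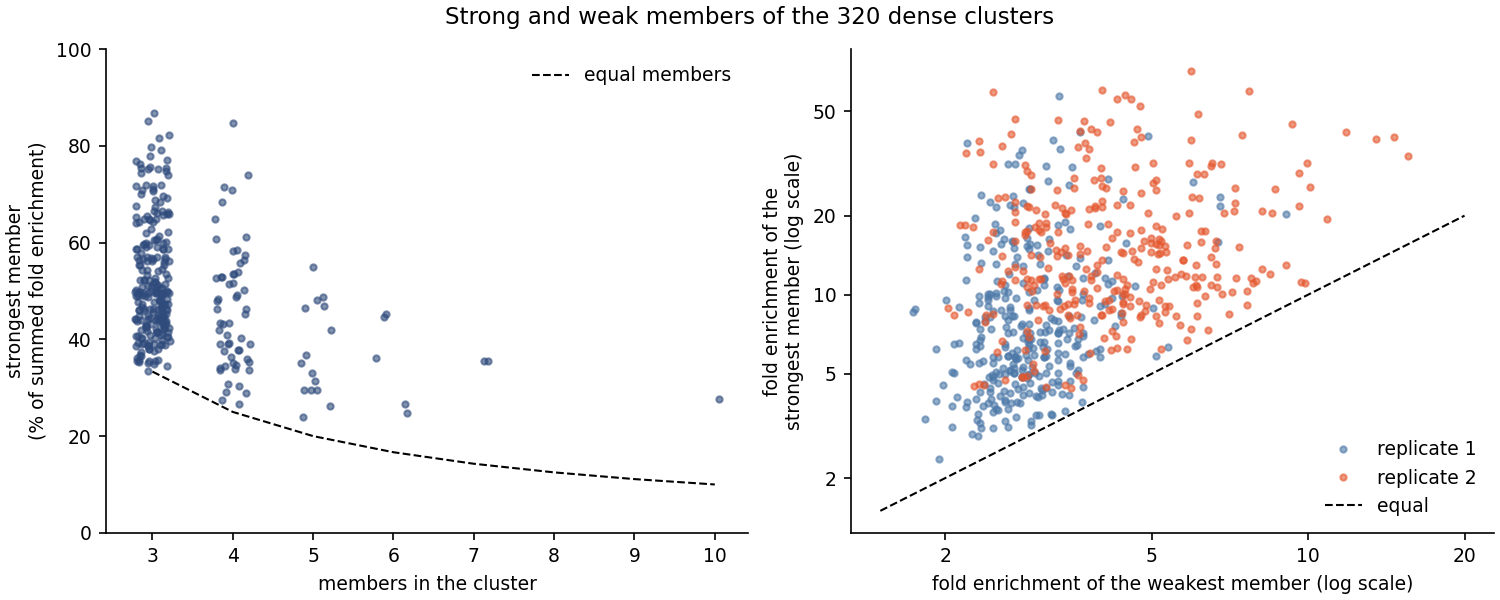
Left, the share of the summed fold enrichment held by the strongest member of each of the 320 clusters against the number of members, with points spread sideways for legibility and a dashed line where all members would be equal. Right, fold enrichment of the strongest against the weakest member of each cluster in each replicate, on log axes; the medians were 6.78 against 2.96 in replicate 1 and 13.6 against 4.16 in replicate 2.

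The largest cluster lay on chromosome 14 (chr14:62019805-62061617) and held 10 members over 41.8 kb. It began 2.11 kb beyond the end of PRKCH, the gene of protein kinase C eta, and ended 100.6 kb before HIF1A, which encodes the oxygen-regulated subunit of hypoxia-inducible factor 1. The annotation places it in ENSG00000258989, a coding gene without a symbol that spans this interval. Member 6, in an intron, reached a fold enrichment of 23.9 (replicate 1) and 36.3 (replicate 2). Member 1, also intronic, had 17.5 and 41.7, so the replicates differed on which of these members was strongest. The other 8 members were weaker, from 2.35 to 7.51 in replicate 1 and from 3.93 to 14.1 in replicate 2. One of them, at 2.35 and 3.93, stood 86 bp from the start of LINC01303, a long noncoding RNA gene, and was the only promoter member. As the sequences show, member 6 carried a forkhead and an AP-1 match, while member 1 carried neither and held TGTTGAC, the reverse complement of GTCAACA. Forkhead matches were present in 2 of the 10 members and AP-1 matches in 2.

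Near SLC38A2, which encodes a sodium-coupled transporter of neutral amino acids, 6 members spanned 26.2 kb (chr12:46864806-46891002) in introns and at the start of an unnamed noncoding gene, 111 kb from the coding start site. Their fold enrichment, in order along the chromosome, was 2.92, 19.2, 14.01, 31.5, 2.64 and 2.88 in replicate 1. In replicate 2 it was 4.98, 29.5, 22.9, 57.4, 4.43 and 6.71. The same 3 members were high in both replicates, and 5 of the 6 carried the forkhead consensus. The strongest had 194 and 354 reads over its summit.

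DDAH1, an enzyme gene whose product breaks down methylated arginines that inhibit nitric oxide synthesis, held 5 of the 6 summits of a cluster of 30.4 kb (chr1:85779539-85809953). Its members had 4.38 to 9.85 in replicate 1 and 6.21 to 15.9 in replicate 2, and the strongest held 24.9% of the sum. Forkhead matches stood in 2 members and AP-1 matches in 2 others.

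CDK6, a cyclin-dependent kinase of the G1 phase, had 5 intronic members over 26.5 kb (chr7:92370057-92396557). The fold enrichment was 4.07, 3.42, 14.2, 5.62 and 8.67 in replicate 1 and 5.03, 5.44, 26.6, 12.4 and 25.5 in replicate 2. AP-1 matches were present in 4 of the 5 members, the largest number among the 28 clusters named by the rule given under the methods, and forkhead matches in 3. The 2 strongest members in replicate 2 carried both.

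At TRIO, the gene of a guanine nucleotide exchange factor, the 5 members over 30.03 kb (chr5:14156528-14186561) were all intronic and none carried either sequence. The first had 13.8 in replicate 1 and 14.6 in replicate 2. The other 4 lay between 3.63 and 4.40 and between 4.98 and 7.47. The median local background was 1.74 and 2.13 times the genome-wide one.

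The densest cluster of 4 or more members lay near GPRC5A, an orphan G protein-coupled receptor gene induced by retinoic acid, with 4 members in 7.25 kb (chr12:13023297-13030547). One member reached a fold enrichment of 37.9 (replicate 1) and 58.955 (replicate 2) and held 84.8% of the sum. Its neighbours reached 2.203 to 3.22 and 2.47 to 3.78. The forkhead consensus stood 4 bp from the summit of the strong member.

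The strongest single member of any cluster was intronic in DNM3, which encodes the endocytic GTPase dynamin 3 (cluster chr1:172312495-172329243). It reached a fold enrichment of 57.4 (replicate 1) and 71.0 (replicate 2), over 311 and 438 reads, and its region was 2017 bp wide. The other 2 members had 3.32 and 3.44 in replicate 1 and 6.93 and 5.95 in replicate 2. Neither the forkhead consensus nor the AP-1 sequence occurred within 50 bp of the strong summit, as its printed sequence shows.

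In TAB2, an adaptor of the kinase TAK1, 2 of 3 members were strong (chr6:149555895-149564732). They had 40.1 and 27.6 in replicate 1 and 59.5 and 49.1 in replicate 2, with 4.91 and 7.70 at the member between them. The first carried neither sequence and the last carried both.

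**Figure D3:**
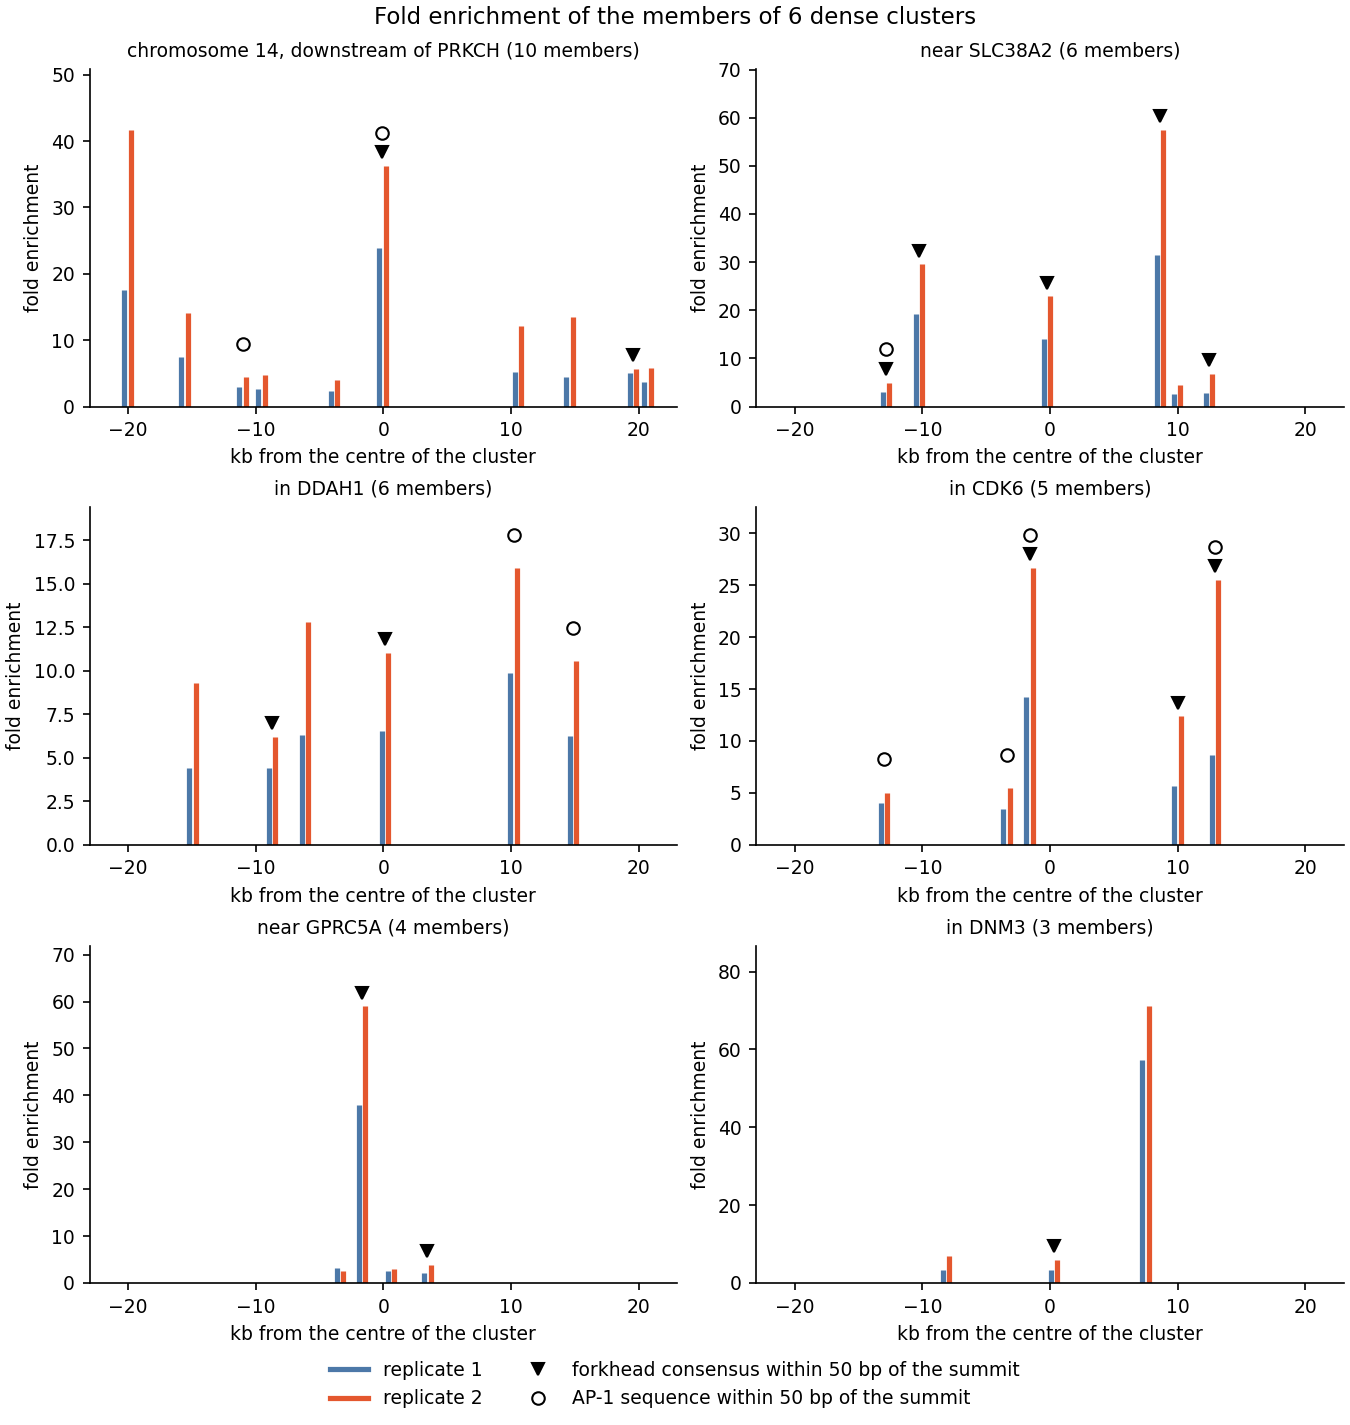
Fold enrichment (vertical axis) of each member in replicate 1 and replicate 2 against its distance in kb from the centre of the cluster, for 6 clusters; triangles mark a forkhead consensus and circles an AP-1 sequence within 50 bp of the summit. Vertical scales differ between panels, and replicates are drawn side by side; strong and weak members share the chromosome 14 and SLC38A2 clusters, and 1 member dominates near GPRC5A and in DNM3.

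The remaining clusters of 5 or more members among those named by the rule lay in or near genes of varied function. Near CITED2, a transcriptional coregulator gene 380 kb from the cluster centre, 7 members ran from 2.35 to 13.2 in replicate 1 and from 2.92 to 28.6 in replicate 2, and 5 carried the forkhead consensus. FRMD6, which encodes a FERM domain protein of the Hippo pathway, held 7 members from 2.003 to 9.57 and from 2.18 to 18.5. The cluster at SUSD1 had 6 members, of which 2 lay in the gene, with a highest value of 22.5 and 33.3. The cluster beyond the end of TGFB2, the gene of transforming growth factor beta 2, had 6 members with a highest value of 6.78 and 9.17. In ATP9A, a P4-ATPase gene on chromosome 20, 6 members reached 7.80 and 16.1 over a median background of 3.33 and 2.83, the highest background of the named clusters in both replicates.

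A cluster of 5 ran from RPRD1B to TGM2, the gene of transglutaminase 2. Its strongest member stood 1103 bp from a start site of TGM2 with 36.0 in replicate 1 and 30.8 in replicate 2, one of the members that were higher in replicate 1. The named cluster in FOXP1, a forkhead gene itself, had 5 members, 3 of them in promoters of its transcripts, from 2.86 to 7.17 and from 4.98 to 15.7. FOXP1 is 629 kb long and held 7 member summits in 2 dense clusters, among 17 shared summits. MYH9, which encodes the heavy chain of nonmuscle myosin IIA, had 5 members from 3.46 to 7.16 and from 5.21 to 15.995 with a median local background equal to the genome-wide one, although that of 1 member was 1.86 times as high in replicate 2. Clusters of 5 also lay at PTGER2, a prostaglandin E2 receptor gene, and at ARHGAP35, a GTPase-activating protein gene. Others of that size took the name of the nearest coding start site and held no summit in the gene. The distance from the cluster centre was 118 kb for RPS23, 167 kb for TOMM20, 37.6 kb for CDC42EP3, 95.4 kb for HAS2 and 50.9 kb for GSDMC.

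Among smaller clusters with a high sum, ARHGAP28 had 4 members, of which 2 were strong, at 25.3 and 20.0003 in replicate 1 and 42.8 and 39.9 in replicate 2. Both carried AP-1 and the second also a forkhead match. In a cluster of 4 at KIAA1755, the strongest member had 30.5 and 45.5 and stood in the promoter of an unnamed gene 10498 bp from the start site of KIAA1755, while the member nearest that start site was the weakest, at 3.50 and 4.15. The strongest member in BDP1, a gene of a subunit of the RNA polymerase III factor TFIIIB, reached 33.9 and 60.3. A compact cluster among histone genes on chromosome 6, over H2AC7 and H4C5, had all 4 members in promoters with a highest value of 5.46 and 10.4.

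Members were mostly away from promoters. A promoter is taken here as the 2 kb on either side of the start of any annotated transcript. Summits of 211 members (19.6%, 95% Wilson interval 17.3 to 22.05) lay in one, against 20.1% of all shared regions. Introns held 49.7%, exons 3.34% and the space between genes 27.4%. For isolated regions the shares were 20.1% in promoters, 47.7% in introns, 2.404% in exons and 29.8% between genes. No member lay in a promoter in 181 of 320 clusters, and every member did in 12. The strongest member was a promoter member in 69 clusters and the weakest in 64. Median fold enrichment was 3.75 and 6.54 in promoter members and 3.86 and 7.05 in intronic ones.

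In 183 of 320 clusters (57.2%, 51.7 to 62.5) all summits lay within 1 annotated gene, and in 137 (42.8%) within 1 protein-coding gene. No protein-coding gene was overlapped by 128 clusters, and no annotated gene at all by 60. The spans of the clusters overlapped 205 of 20098 protein-coding genes (1.02%), and 308 (1.53%) lay within 25 kb of one. Long genes were overlapped more often. The median length of the overlapped genes was 144 kb, against 27.3 kb for all, and the share overlapped was 0.318%, 0.259%, 0.657% and 2.85% from the shortest to the longest quartile of genes.

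Of 19 genes of the YAP and TEAD pathway, which relays cell density and mechanical tension to transcription, 5 were overlapped, to be read against the 1.02% of all coding genes and the lengths of the genes. The median length of the genes in this list was 81.3 kb, which falls in the longest quartile of genes, of which 2.85% were overlapped. The 5 overlapped genes ran from 3.20 to 215 kb. The gene lists were chosen with earlier results of these data known, and none was tested. ANKRD1, a target of this pathway of 8.99 kb, had members of 6.78, 23.5 and 7.75 in replicate 1 and 13.6, 31.7 and 9.96 in replicate 2, with the strongest 451 bp from a start site of the gene. AMOTL1, which encodes a partner that holds YAP in the cytoplasm, had intronic members of 9.05, 12.0 and 20.3 and of 14.6, 20.001 and 39.8, rising along the gene in both replicates. The cluster over the target CCN2 had a highest value of 6.47 and 25.9, at a member outside the gene and 13084 bp from its start site. The member 130 bp from that start site had 4.65 and 7.82. At the target CCN1 the highest value was 10.3 and 9.56. VGLL4, whose product competes with YAP for TEAD, reached 5.08 and 11.6.

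In the TGF-beta pathway, with a median gene length of 80.6 kb, 2 of 19 genes were overlapped, against 1.02% of all coding genes. SMAD7, which encodes an inhibitor of the pathway, had 3 promoter members in 3.30 kb with 3.49 to 5.33 in replicate 1 and 4.96 to 10.5 in replicate 2. TGFB2 was overlapped by a cluster at its start, distinct from the one beyond its end, with 3.03 to 3.48 and 3.78 to 9.74.

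Of 22 forkhead genes 3 were overlapped, FOXP1, FOXN2 and FOXC1, against 1.02% of all coding genes. The cluster at FOXC1 itself was among the weaker ones. Its members had 5.70, 3.46 and 2.74 in replicate 1 and 8.93, 5.14 and 2.02 in replicate 2, and all 3 carried the forkhead consensus. The lowest, in the exon of FOXC1, stood over a background of 3.20 times the genome-wide one in replicate 2. RUNX1, which is 1217 kb long, was the only one of 4 RUNX-related genes overlapped, again to be read against 1.02%. It had 2.91 to 7.16 and 4.01 to 13.5 at 3 intronic members.

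Of 22 collagen and laminin genes, with a median length of 84.9 kb, LAMA4 and LAMC1 were overlapped, against 1.02% of all coding genes. LPP, which encodes a focal adhesion protein and belongs to the list of integrin and focal adhesion genes, is 737 kb long and held 2 clusters with a highest value of 19.0 and 23.5. No gene was overlapped among 12 AP-1 subunits, 12 genes of epithelial-mesenchymal transition, 21 receptor tyrosine kinases, 15 genes of urothelial identity and 22 cytosolic ribosomal proteins. With only 1.02% of all coding genes overlapped, lists this short cannot show that a group of genes was avoided. Within 25 kb, to be read against the 1.53% of all coding genes, stood clusters for JUN and MAFK among the AP-1 subunits, GRHL2 and KRT20 among urothelial genes, PTK2 among focal adhesion genes and RPL15 among ribosomal ones. The cluster next to MAFK reached 14.7 and 23.4 at a member in the promoter of INTS1, which encodes a subunit of the Integrator complex, and that next to JUN 4.22 and 10.9.

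The forkhead consensus occurred within 50 bp of the summit in 494 of 1078 members (45.8%, 95% Wilson interval 42.9 to 48.8), against 48.7% of all shared regions. In windows of the same size centred 500 bp downstream it occurred in 12.2%. A match at the summit alone was found in 434 members and in the neighbouring window alone in 72, a difference with a −log10 p of 63.3 in an exact McNemar test (two-sided, n = 1078). The test counted each region as independent, although the regions come from the same libraries and lie in clusters. It sets summits against neighbouring windows and does not compare members with other shared regions. The strict form GTAAACA was present in 18.3% of members, against 1.58% of the neighbouring windows. The median match lay 12 bp from the summit, and 212 of the 494 lay within 10 bp. In isolated regions the consensus was present in 49.5% (48.5 to 50.5) and GTAAACA in 21.8% (21.0 to 22.6), both higher than in members. In introns the shares were 43.1% of members (39.0 to 47.3) and 49.2% of isolated regions (47.8 to 50.7), while in promoters they were 49.3% (42.6 to 56.0) and 49.7% (47.4 to 51.9). These differences between classes were not tested.

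The AP-1 sequence occurred in 165 members (15.3%, 13.3 to 17.6), against 16.6% of all shared regions and 2.04% of the windows downstream of members. It was found at the summit alone in 164 members and in the neighbouring window alone in 21, with a −log10 p of 27.9 in the exact McNemar test. The limits given for the forkhead test hold here too. AP-1 matches lay farther from the summit than forkhead matches, at a median of 21 bp. In the windows downstream, the median distance from the window centre was 23.5 bp for AP-1 and 22 bp for forkhead matches. Within 10 bp lay 18.8% of AP-1 matches at the summit and 18.2% of those downstream, so AP-1 matches were hardly more central than in the control. Both sequences were present in 5.75% of members, the forkhead consensus alone in 40.1%, AP-1 alone in 9.55% and neither in 44.6%. Isolated regions had both in 7.64% and neither in 41.1%.

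Shorter sequences of factors that often share enhancers with AP-1 were nearer to their background. GGAATG, bound by TEAD factors, was present on either strand in 11.3% of members (9.56 to 13.3) and 7.42% of the neighbouring windows (6.003 to 9.14). TGTGGT, bound by RUNX factors, was present in 12.4% (10.6 to 14.5) and 5.66% (4.43 to 7.20). The TEAD and RUNX shares are given for members alone, so they cannot show whether dense clusters differed from other shared regions. GTCAACA, a relative of the forkhead consensus looked up after it was seen under member 1 of the chromosome 14 cluster, occurred on either strand in 4.45% of members (3.37 to 5.85) and 0.464% of the windows downstream. In isolated regions it occurred in 5.47% and 1.15%. At TRIO, 3 of the 5 members carried it, and it lay in the strongest member of 18 clusters and in the weakest of 10.

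The forkhead consensus was more frequent at stronger members. From the weakest to the strongest quartile of all shared regions by mean fold enrichment, it was present in 38.5%, 40.7%, 50.2% and 53.3% of the members in that quartile and in 42.8%, 48.7%, 52.6% and 54.0% of the isolated regions. The lowest quartile had a mean fold enrichment of up to 3.85 and the highest one of at least 8.10. The median member with the consensus stood at 4.09 (replicate 1) and 7.36 (replicate 2), and the median member without it at 3.63 and 6.28. AP-1 was present in 11.3%, 16.996%, 12.3% and 20.4% of the members of the same quartiles.

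Within a cluster, the strongest member carried the consensus in 160 of 320 cases (95% Wilson interval 44.6 to 55.4%) and the weakest in 136 (42.5%, 37.2 to 48.0). It was in the strongest member and not the weakest in 97 clusters and the other way round in 73. For AP-1 these counts were 44 and 33. The part of the variance in presence that lay between clusters was estimated at 0% for the forkhead consensus and at 1.33% for AP-1. These estimates have no interval, and a share of variance cannot fall below 0%. They therefore cannot show that the presence of a match was unrelated to the cluster. Every member had a forkhead match in 25 clusters and none in 37. AP-1 was absent from 187 clusters and present in 2 or more members of 28, and 25 clusters held neither sequence at any summit.

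**Figure D4:**
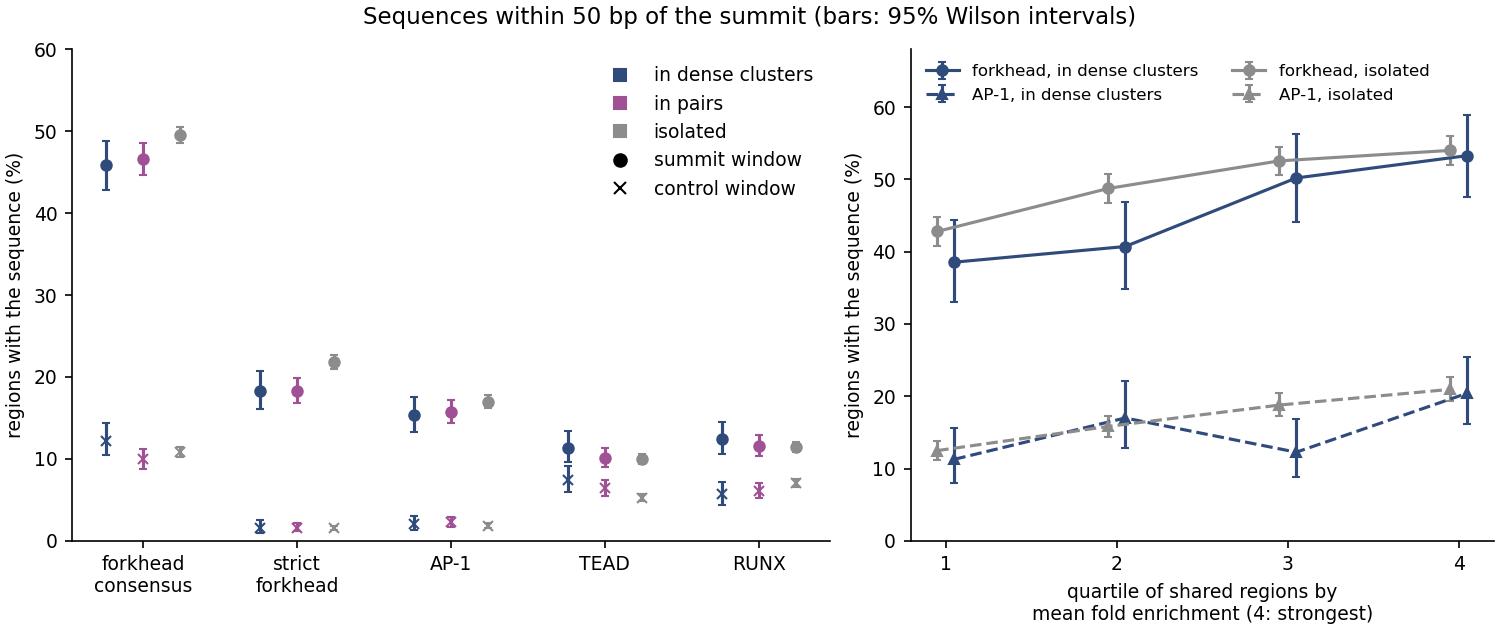
Left, percent of members, regions in pairs and isolated regions with each sequence in the window of 50 bp on either side of the summit (filled points) and in the window 500 bp downstream (crosses). Right, percent of members and isolated regions with the forkhead consensus or AP-1 in each quartile of mean fold enrichment; bars are 95% Wilson intervals, and the forkhead share of members rose from 38.5% to 53.3%.

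Dense clusters were unevenly spread over the chromosomes. On chromosome 20, 76 of 432 shared regions (17.6%) were members, in 20 clusters, the largest share of the 23 chromosomes. Chromosome 4 had the smallest, with 13 of 603 (2.16%), and chromosome X had 9 of 245 (3.67%). Shared regions themselves were most frequent on chromosome 20, with 6.85 per Mb. Their median local background there was 1.78 times the genome-wide one in replicate 1 and 1.86 in replicate 2, the highest of any chromosome. Median fold enrichment of the members of chromosome 20 was 3.29 and 6.74, close to or below that of all members. Across the 23 chromosomes the share of members had a Spearman correlation of 0.708 with shared regions per Mb. The rule itself ties these values, because regions that lie closer together are joined more often. With the median local background the correlation of the share was 0.604 in replicate 1 and 0.649 in replicate 2, or 0.547 and 0.599 without chromosome 20. Chromosomes are not replicates and their values come from the same libraries, so these are descriptions, and the part of copy number in them was not tested.

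**Figure D5:**
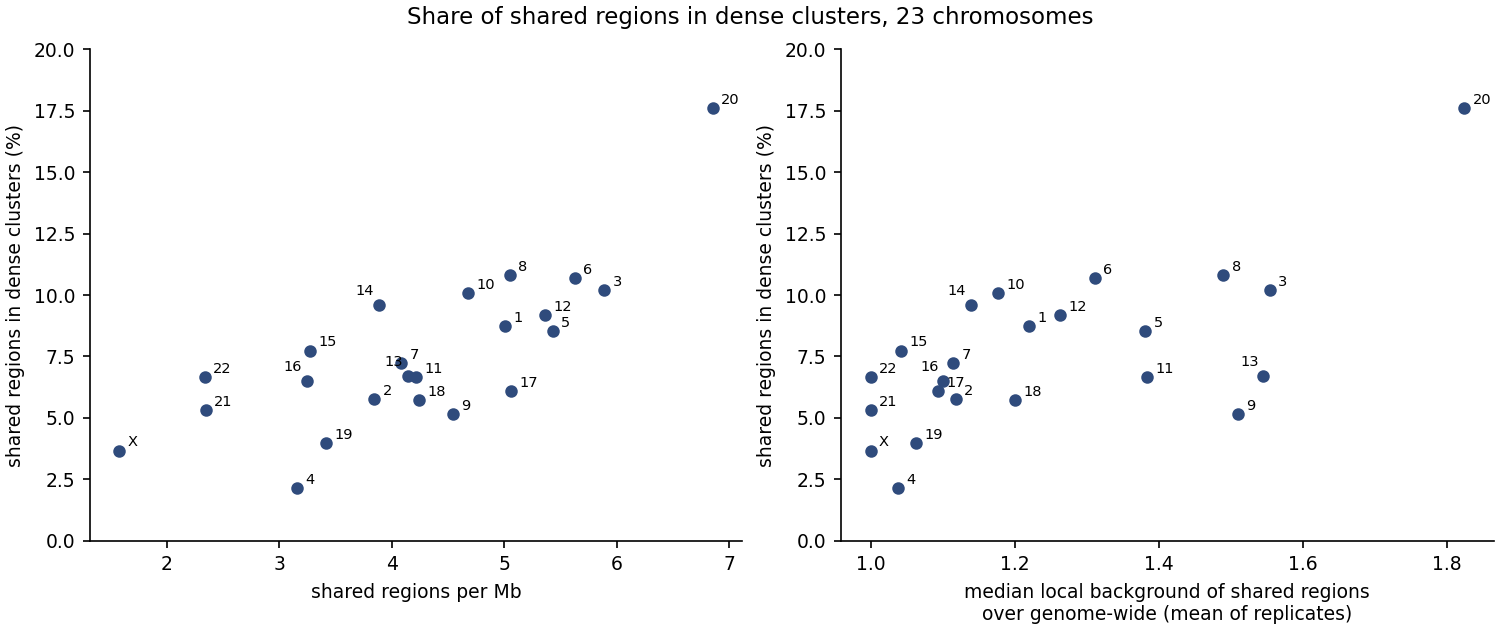
Percent of shared regions that lay in dense clusters on each of 23 chromosomes against shared regions per Mb (left) and against the median local background of shared regions over the genome-wide background, as the mean of the replicates (right). Chromosome 20 stands at 17.6% with the highest value on both horizontal axes.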

How the data were processed

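FOXC1 ChIP-seq of J82 cells was analysed from 1 deposited peak list per replicate; input files were not used here. The submitters' processing notes name BWA, MACS2 2.2.7.1 and bedtools, and the coordinates are those of hg19. The filter behind the lists is not stated, and their lowest −log10 p was 2.00 in replicate 1 and 2.02 in replicate 2. The study called its reproducible peaks with the IDR tool, which was not run here. Each peak carried a score, a fold enrichment (a ratio), a −log10 p and a −log10 q, as deposited by the authors. The files held no read totals, so reads over each summit and the local background were worked out from fold enrichment and −log10 p, which succeeded for all 22447 and 41832 peaks. Intervals cover counting error only.

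Members were found as described above with Python 3.11.15, pandas 2.3.3, scipy 1.17.1 and pysam 0.24.0, in scripts tested on simulated data. A region took as its summit the mean summit position of the best peak of each replicate. Genes were those of GENCODE 44 mapped to GRCh37 (the study used version 19). Clusters were ranked by number of members and then by summed mean fold enrichment. Named were the first 20, the next 5 by that sum, the 3 with most members per kb among those of 4 or more, and that of the strongest member. A cluster took the name of the coding gene holding most of its summits, otherwise of the nearest coding start site. Genes of the lists that a cluster overlapped were named too. INTS1, list genes within 25 kb of a cluster and the neighbouring clusters of the closing section were named after their values were seen. The members, gene lists and sequences searched were chosen with earlier results of these data known, and the TEAD and RUNX sequences after the files had been opened. Exact McNemar tests (two-sided) compared summit windows with windows 500 bp downstream. Other gaps, thresholds, windows, annotations and single replicates were tried as alternatives. One gene of the integrin and focal adhesion list, and with it the count for that list, is not reported here.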

Additional observations from a re-analysis of the deposited data

How the results depend on the processing

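The number of members and clusters followed the rule's settings. Against 1078 members in 320 clusters, a gap of 6 kb gave 433 in 137, a gap of 25 kb 2158 in 613, keeping only peaks whose −log10 q was 5 or more gave 199 in 62, peaks with a fold enrichment of at least 5 gave 40 in 13, and clusters of at least 5 gave 129 in 23. Peaks of a single replicate gave 2421 to 10953 members in 704 to 2788 clusters, with the higher numbers from replicate 2. Of 28 named clusters, 18 still held 3 or more regions at a gap of 6 kb and 16 with the stricter q. The ratio of members to isolated regions in median fold enrichment was 1.01, with 0.997 in replicate 1 alone and 1.02 in replicate 2 alone. It was 1.10 by −log10 p, 1.10 by reads and 0.989 at a gap of 25 kb. Its direction thus differed between the replicates and turned with the gap. The forkhead share exceeded that of its control window under all 9 alternatives, one of them (a relaxed consensus, 48.6% against 13.4%) chosen after seeing the data, and the AP-1 share under all 7. Promoter members were 13.5% within 1 kb, 35.8% within 5 kb and 12.2% with coding start sites. Clusters within 1 gene were 42.8% with coding genes, 65.0% at 6 kb and 51.4% at 25 kb. Coding genes overlapped were 1.53% with 25 kb added, 0.453% at a gap of 6 kb and 2.10% at 25 kb. The background ratio of 1.05 became 1.04 without chromosome 20. No paired analysis was possible because the input libraries had no files here and no groups were compared. At a median of 26 and 49 reads, weak members are sensitive to the list's threshold.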

Other observations

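Some dense clusters were neighbours of each other. The median distance to the next dense cluster was 1734 kb, but 24 of 320 clusters had another within 50 kb. The smallest distance, 12.8 kb, separated the cluster of 4 near GPRC5A from a cluster of 3 promoter members at GPRC5A itself. Within LPP, the clusters of 4 members each stood 12.8 kb apart. The cluster of 3 over CCN1, a matricellular protein gene, was followed by a further cluster of 3 after 16.85 kb. Pairs of clusters also stood 19.7 kb apart in ATXN1, 22.1 kb in ANXA2, which encodes the membrane-binding protein annexin A2, and 25.5 kb in FMN1. In ANXA2 all 4 shared regions of the gene were members, in FMN1 7 of 8, and in LPP 8 of 16.

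Peaks of replicate 2 alone were frequent between members. The cluster spans held 175 of them in 112 clusters, or 38.3 per Mb against 9.39 per Mb of the chromosomes, with a median fold enrichment of 3.20. Peaks of replicate 1 alone numbered 22, or 4.82 per Mb against 2.98. The rule chose spans where peaks of both replicates lay close together, so whole chromosomes are not a matched background for these densities. No matched spans were compared, and the differences were not tested.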
